A study of Mus musculus with 11 samples.

Results

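Wnt proteins, their receptors and the secreted and intracellular proteins that tune them were followed as a set of 55 genes in neurons of the newborn sensory thalamus. The genes were chosen by name, with earlier results of these data known. All 55 were found among the 54752 gene identifiers of the count tables. They are 19 Wnt ligands, 10 Frizzled receptors, 5 co-receptors, 10 secreted inhibitors, 6 R-spondins and R-spondin receptors, and 5 feedback regulators. The study compared neurons of the main sensory relay nuclei of the thalamus by RNA-seq. Visual relay neurons came from the dorsolateral geniculate nucleus (dLG, 4 libraries), somatosensory relay neurons from the ventral posteromedial nucleus (VPM, 4 libraries) and auditory relay neurons from the ventral part of the medial geniculate nucleus (MGv, 3 libraries). Each library was made from the nucleus of 4 pooled brains, dissociated and sorted for red fluorescence.

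All groups came from mice of the outbred ICR/CD-1 stock at postnatal day 0 with the genotype Gbx2CreER-IRES-EGFP/+::R26lsl-tdTomato/+. In these mice a tamoxifen-dependent Cre recombinase made from 1 copy of the Gbx2 gene switches on tdTomato, so the nuclei share both alleles and the induction, and by their labels the groups differ only in the nucleus dissected. Gbx2 is a transcription factor of early postmitotic thalamic neurons, and the sorted cells are those that had expressed it when tamoxifen was given. No library comes from a mouse without these alleles.

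Wnts are lipid-modified secreted proteins that bind Frizzled receptors together with the co-receptors Lrp5 and Lrp6, which stabilizes beta-catenin and lets it act on genes through TCF/LEF transcription factors. Secreted Frizzled-related proteins and Wif1 bind the ligands, Dickkopf proteins act on the co-receptors, and R-spondins with their Lgr receptors raise Frizzled levels by removing the ubiquitin ligases Znrf3 and Rnf43. Other Wnt signals act through Ryk, Ror receptors and planar cell polarity proteins, and in the developing thalamus Wnts are known for patterning of the early territory and for roles in axon growth and synapse formation.

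Total counts were 15.9 to 22.7 M in the dLG libraries, 18.9 to 23.6 M in VPM and 10.2 to 13.2 M in MGv (M, 1e6 counts), so MGv was sampled less deeply. Levels are given as counts per 1e6 counts (CPM) after TMM scaling, which uses a trimmed mean of log ratios between libraries. A count of 3 corresponds to between 0.129 and 0.292 CPM, and this covers counting error only. The libraries dLG 2, VPM 3 and MGv 1 stood apart from the rest: Hspa8, a constitutive chaperone gene, was at 3.05, 4.09 and 5.56 CPM in them and between 159 and 581 CPM in the other 8. Member calls that were lost or gained without these 3 libraries are named beside their results. As a check of the cell type, the summed level of 9 pan-neuronal genes was between 9946 and 13329 CPM in every library. Stmn2 made up 45.1% of it. Snap25 was higher in VPM, and Rbfox3 in MGv, than in each other nucleus. Nefm was 2.93-fold lower in MGv than in dLG and 4.25-fold lower than in VPM. Map2 was higher in MGv than in VPM. Of 8 thalamic relay neuron genes, 4 were higher in dLG than in MGv and 3 were lower. Between VPM and MGv, 3 were higher in each. Between dLG and VPM, 3 were higher in dLG and 2 in VPM. The part of these neuronal genes in the results was not tested. The 8 endothelial genes summed to between 0.778 and 6.77 CPM. Of these, 3 were tested: Tek was higher in dLG and in VPM than in MGv, Kdr was lower in dLG than in VPM and in MGv, and Flt1 was lower in dLG than in VPM, whereas Cdh5 had no count. Their part in the results was not tested. The summed level of 12 genes of astrocytes and radial glia overlapped between the nuclei. It was 248 to 383 CPM in dLG, 229 to 296 CPM in VPM and 235 to 350 CPM in MGv, and Sox2 made up 39.1% of it. Of the 11 tested, 4 were 2.74-fold to 11.3-fold higher in MGv than in dLG, and 2 were 1.66-fold and 1.82-fold lower. Against VPM, 4 were higher in MGv and 1 was lower. The part of these glial genes in the results was not tested. Gbx2 itself, whose allele drives the labelling, was at 14.2 to 51.6 CPM in dLG and VPM and at 272 to 333 CPM in MGv. Of its exonic bases 43.45% overlap D130058E05Rik on the other strand, whose reads cannot be told apart if strand was not used in counting. These are bulk libraries, in which fewer expressing cells and less RNA per cell cannot be told apart.

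The Wnt pathway genes covered a wide range of levels. To compare genes with each other, levels were divided by the length of the merged exons and are given as CPM per kilobase. On this scale Wnt3 was the most abundant member averaged over the nuclei (14.6 CPM per kilobase), followed by Sfrp2 (12.2) and Fzd9 (10.2). Nkd1 (8.59) and Nkd2 (8.26) came next. At the other end, 17 members stayed under 1 CPM in every library, and Wnt8a, Wnt8b and Lrp5 had no count in any of them, which allows a level of up to 0.0153 CPM over all libraries together.

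**Figure D1:**
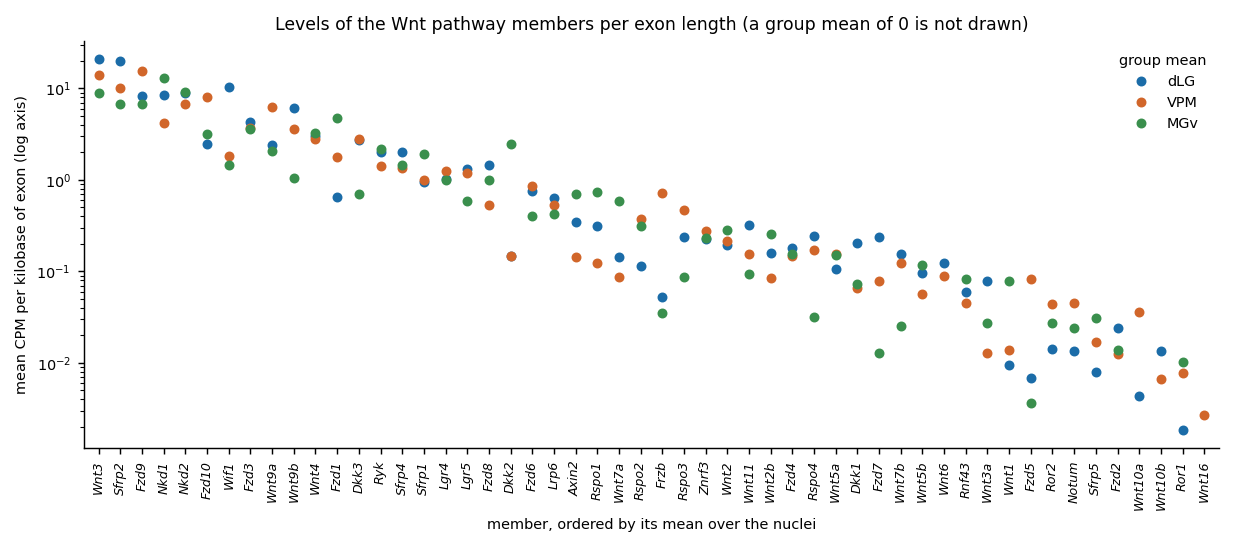
Mean level of each member in CPM per kilobase of exon (log axis) in dLG, VPM and MGv, with members ordered by their mean over the nuclei. Points are group means of 4, 4 and 3 libraries. Wnt3 stands first at 14.6 CPM per kilobase, and the order of the nuclei changes from gene to gene.

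The order of the nuclei was not the same for each role when its genes were summed. Summed over the 19 ligand genes, the level was 33.8 ± 3.18 CPM per kilobase (mean ± SD) over the 4 dLG libraries, 27.9 ± 1.89 over the 4 VPM libraries and 16.9 ± 3.97 over the 3 MGv libraries, and the library ranges of these sums did not overlap. Wnt3 alone made up 61.4% ± 6.10 of the dLG sum, 50.8% ± 2.73 of the VPM sum and 52.1% ± 3.83 of the MGv sum (SD, same libraries). The next ligand by share was Wnt9b in dLG (18.3% ± 6.43), Wnt9a in VPM (22.4% ± 2.48) and Wnt4 in MGv (20.04% ± 4.03). The 10 Frizzled genes together reached 30.7 ± 4.81 CPM per kilobase in VPM, with 18.4 ± 4.56 in dLG and 19.8 ± 5.67 in MGv, and here the ranges of the nuclei overlapped. The 10 secreted inhibitors were highest in dLG, at 36.4 ± 6.49 CPM per kilobase against 18.03 ± 1.94 in VPM and 14.9 ± 2.88 in MGv. The 5 feedback regulators were highest in MGv, at 23.3 ± 0.49 CPM per kilobase against 18.04 ± 2.17 in dLG and 11.4 ± 0.65 in VPM. These sums are given as a description with no test.

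The question of the comparison was which of these genes differ between neurons of different sensory modalities. Of the 55 members, 36 (65.5%) passed the filter on low counts, against 29.1% of all identifiers, and 19 were not tested. Of the 36 tested members, Frzb alone reached the filter's level (0.529 CPM) in the libraries of 1 nucleus alone. Between dLG and VPM, 11 of the 36 members (30.6%) differed at an adjusted p under 0.1, where 10.7% of all tested genes did. Of them, 6 were higher in dLG, a direction in which 4.97% of all tested genes were called, and 5 were higher in VPM, against 5.74%. Between dLG and MGv, 9 members (25.0%) differed, against 16.1% of all genes. Here 6 were higher in dLG, against 8.61%, and 3 in MGv, against 7.49%. Between VPM and MGv, 16 members (44.4%) differed, against 19.0% of all genes, with 8 higher in VPM, against 10.4%, and 8 higher in MGv, against 8.56%. A joint test among the nuclei called 17 members (47.2%), against 24.2% of all genes.

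Members whose libraries do not overlap between the nuclei compared numbered 13 for dLG against VPM, where 14.6% of all tested genes behaved so, 14 for dLG against MGv (23.8%) and 19 for VPM against MGv (25.1%). In these contrasts the members had a median log2 fold change, taken without sign, of 0.56, 0.79 and 0.97, and all tested genes one of 0.27, 0.32 and 0.36. Values without sign also grow with noise, and standard errors of low members reached 1.51 (Rspo4, VPM against MGv). These medians therefore do not separate noise from difference. In all, 18 members (50.0%) were called in at least 1 pair of nuclei, against 28.3% of all tested genes, and 3 (Wnt3, Fzd1 and Nkd1, 8.33%) in every pair, against 1.79%. The contrasts share libraries, so their results are not independent of each other.

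**Figure D2:**
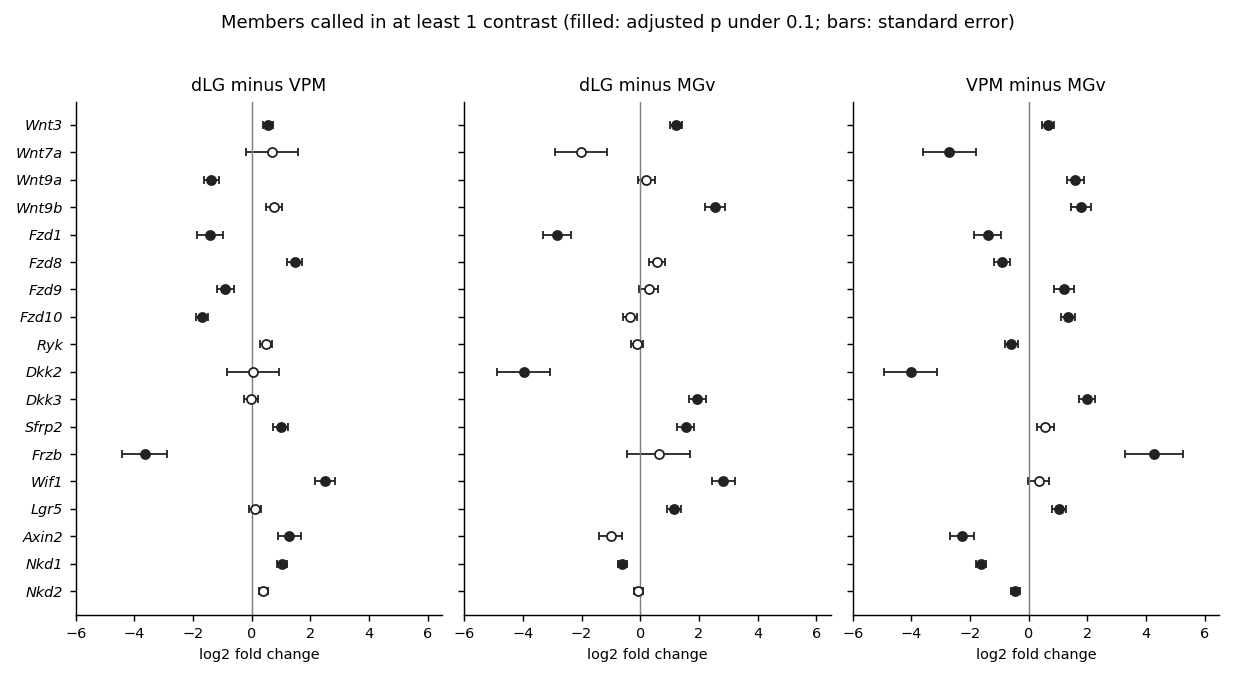
Log2 fold change of the 18 members called in at least 1 contrast, for dLG minus VPM, dLG minus MGv and VPM minus MGv, with bars of 1 standard error from the fit to 11 libraries. Filled points passed an adjusted p under 0.1. Frzb and Dkk2 lie farthest from 0, and only Wnt3, Fzd1 and Nkd1 are filled in all 3 panels.

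Among the ligands, Wnt3 and Wnt9b were highest in dLG and lowest in MGv, and Wnt9a was highest in VPM. Wnt3, a ligand that acts through beta-catenin, was at 58.2, 61.8, 81.4 and 54.9 CPM in the dLG libraries 1 to 4, at 41.1, 47.8, 45.3 and 40.1 CPM in VPM 1 to 4 and at 36.4, 19.9 and 26.0 CPM in MGv 1 to 3. No library of one nucleus overlapped with those of another. Its log2 fold change was 0.56 ± 0.18 (SE) for dLG against VPM (adjusted p = 0.0873), 1.22 ± 0.20 for dLG against MGv (adjusted p = 0.00131) and 0.67 ± 0.20 for VPM against MGv (adjusted p = 0.0444). The first of these was the weakest: it missed the threshold when any of the 4 dLG libraries, VPM 1, 2 or 4 or MGv 3 was left out (adjusted p between 0.104 and 0.240). The third did so without VPM 2, MGv 2 or MGv 3 (0.104 to 0.158).

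Wnt9b lies next to Wnt3, on the opposite strand. In GRCm38 the Wnt9b gene spans chr11:103727364-103749821 on the minus strand and Wnt3 spans chr11:103774150-103817957 on the plus strand, so that 24.3 kb separate their starts. Wnt9b, a ligand best known from kidney development, was at 32.3, 20.6, 20.3 and 37.1 CPM in dLG, at 16.1, 16.3, 16.4 and 16.3 CPM in VPM and at 7.14, 2.11 and 4.86 CPM in MGv. The nuclei again did not overlap, and the VPM libraries lay within 1 CPM of each other. The log2 fold change was 2.54 ± 0.35 for dLG against MGv (adjusted p = 0.000277) and 1.78 ± 0.34 for VPM against MGv (adjusted p = 0.00348). For dLG against VPM it was 0.76 ± 0.29, which did not pass (adjusted p = 0.140) but did without the 3 libraries that stood apart (0.88, adjusted p = 0.0653). The order of the nuclei was thus the same for both neighbours. Another such pair, Wnt3a (minus strand) and Wnt9a (plus strand), lies 16.2 kb apart on the same chromosome, and there Wnt3a stayed at or under 0.548 CPM in every library.

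Because Wnt3 and Wnt9b are neighbours whose levels followed the same order, and Axin2 is a widely used beta-catenin target gene, the bases before their starts are shown, from RefSeq on build GRCm38.p6, 5′ to 3′ on the strand of the gene. Capitals mark the GC box letters GGGCGG on either strand. The Wnt3 stretch is chr11:103773925-103774149 (+), cut where the GENCODE gene begins, that of Wnt9b is chr11:103749822-103750071 (-) and that of Axin2 is chr11:108920099-108920348 (+).
Wnt3: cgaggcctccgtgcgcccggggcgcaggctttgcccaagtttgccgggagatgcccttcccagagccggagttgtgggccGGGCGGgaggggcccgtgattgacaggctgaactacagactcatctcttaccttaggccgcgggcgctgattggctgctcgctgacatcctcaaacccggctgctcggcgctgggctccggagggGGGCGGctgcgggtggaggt
Wnt9b: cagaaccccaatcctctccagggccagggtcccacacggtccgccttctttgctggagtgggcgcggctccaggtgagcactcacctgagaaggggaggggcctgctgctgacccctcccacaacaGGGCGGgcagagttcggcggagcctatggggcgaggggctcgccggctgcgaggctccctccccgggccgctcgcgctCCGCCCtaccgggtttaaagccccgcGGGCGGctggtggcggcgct
Axin2: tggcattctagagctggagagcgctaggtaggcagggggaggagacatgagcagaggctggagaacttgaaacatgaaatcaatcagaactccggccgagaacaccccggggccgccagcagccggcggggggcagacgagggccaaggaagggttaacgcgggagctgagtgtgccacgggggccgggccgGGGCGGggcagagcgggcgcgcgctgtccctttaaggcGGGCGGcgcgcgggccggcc
Within 250 bases before the RefSeq start, Wnt3 has 2 GC boxes, Wnt9b 3 and Axin2 2, and 32.7% of the 32851 mouse promoter entries have at least 1. The G and C share was 68.0%, 72.0% and 69.2% in these windows, with a median of 52.4% over all entries. The TCF/LEF core, searched on both strands as CTTTG followed by any pair of A and T, with no overlap with the GC box letters, was found in 14.8% of all entries. It was in none of the entries of the 15 called members that have one, and among the other members it was found in Wnt5b, Wnt11, Fzd7 and Dkk1. Entries were available for 37 of the 55 members.

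Wnt9a had the opposite preference. This ligand, known for its role in joint formation, was at 22.4, 25.1, 17.5 and 18.6 CPM in VPM, at 10.05, 8.51, 8.50 and 5.15 CPM in dLG and at 9.62, 5.003 and 6.12 CPM in MGv. All VPM libraries lay above all others, with a log2 fold change for dLG against VPM of -1.38 ± 0.25 (adjusted p = 0.00368) and for VPM against MGv of 1.59 ± 0.28 (adjusted p = 0.00220). Its level in dLG and MGv differed by 0.21 ± 0.28 on the log2 scale (adjusted p = 0.707).

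Wnt7a, known as a presynaptic organizer in other parts of the brain, was low throughout. It was at 1.13, 1.32 and 3.21 CPM in MGv, at 0.122, 0.0859, 0.708 and 0.907 CPM in dLG and at 0.603, 0.303, 0 and 0.190 CPM in VPM. The MGv libraries lay above the others, and VPM against MGv passed with a log2 fold change of -2.71 ± 0.91 (adjusted p = 0.0683). Without MGv 3 the value was -2.09 (adjusted p = 0.259) and without VPM 1 it was -3.36 (0.0623), and without VPM 2 or VPM 4 the call was lost (0.131 and 0.127). Wnt4 lay between 9.86 and 14.4 CPM over all 11 libraries, and was called in no pair. Wnt2, Wnt2b, Wnt5a, Wnt7b and Wnt11 were tested at 0 to 2.23 CPM and were called in none either. Of these, Wnt11 (axonal and planar polarity signals in other tissues) came nearest, with dLG against MGv at 1.74 ± 0.64 on the log2 scale (adjusted p = 0.101), all dLG libraries being above all of MGv. Wnt7b passed only without the 3 libraries that stood apart, for dLG against MGv (adjusted p = 0.0295) and for VPM against MGv (0.0542), when the MGv libraries that remain have no count. The 9 ligands not tested, among them Wnt1, Wnt8b and Wnt3a, stayed at or under 0.790 CPM.

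**Figure D3:**
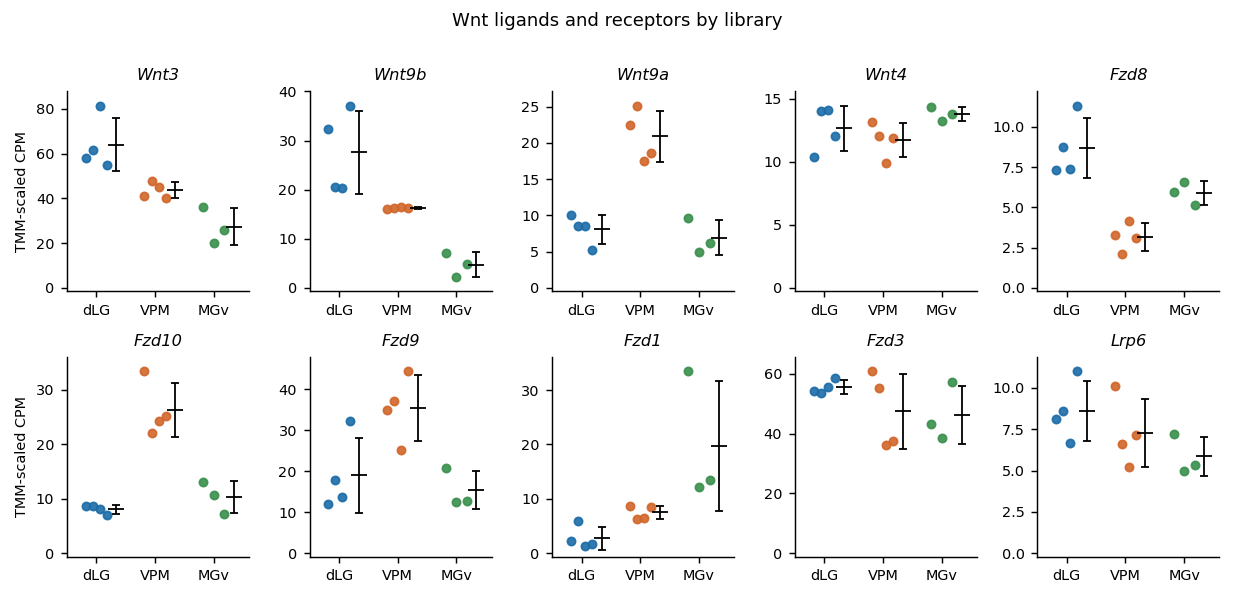
TMM-scaled CPM of 4 ligands, 5 Frizzled receptors and the co-receptor Lrp6 in each library of dLG (4), VPM (4) and MGv (3), with the group mean and SD in black. Axes start at 0. Wnt3 and Wnt9b descend from dLG to MGv, Wnt9a, Fzd10 and Fzd9 are highest in VPM, Fzd8 is highest in dLG, and Wnt4, Fzd3 and Lrp6 were called in no pair.

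The Frizzled receptors divided between the nuclei. Fzd10 and Fzd9 were highest in VPM, Fzd8 was lowest there, and Fzd1 was highest in MGv. Fzd10 was at 33.4, 22.1, 24.2 and 25.2 CPM in VPM, at 8.65, 8.72, 8.06 and 6.92 CPM in dLG and at 13.0, 10.7 and 7.10 CPM in MGv. The lowest VPM library was above every other library. The log2 fold change was -1.70 ± 0.21 for dLG against VPM (adjusted p = 0.000208) and 1.35 ± 0.23 for VPM against MGv (adjusted p = 0.00178). The gene, which has a single exon, lies at chr5:128600844-128604093 (+) in GRCm38.

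Fzd9 was at 35.0, 37.3, 25.1 and 44.5 CPM in VPM, at 12.1, 17.96, 13.6 and 32.2 CPM in dLG and at 20.9, 12.6 and 12.8 CPM in MGv. Library dLG 4 reached into the VPM range, whereas no MGv library did. VPM against MGv gave 1.20 ± 0.33 (adjusted p = 0.0280) and dLG against VPM gave -0.90 ± 0.29 (adjusted p = 0.0859). The dLG contrast was lost without dLG 1, 2 or 3 or VPM 1, 2 or 4 (adjusted p between 0.134 and 0.213), and the MGv contrast without MGv 2 or MGv 3 (0.101 and 0.115).

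Fzd8 was lowest in VPM. It was at 7.31, 8.76, 7.41 and 11.3 CPM in dLG, at 3.29, 2.08, 4.16 and 3.09 CPM in VPM and at 5.94, 6.58 and 5.15 CPM in MGv. No libraries overlapped between nuclei. Its log2 fold change was 1.47 ± 0.26 for dLG against VPM (adjusted p = 0.00297) and -0.91 ± 0.28 for VPM against MGv (adjusted p = 0.0465). The latter missed the threshold without MGv 1, MGv 2 or VPM 2 (adjusted p = 0.106, 0.127 and 0.116), and dLG against MGv was not called (0.56 ± 0.28, adjusted p = 0.235).

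Fzd1 was at 33.5, 12.2 and 13.5 CPM in MGv, at 8.71, 6.32, 6.45 and 8.46 CPM in VPM and at 2.25, 5.84, 1.25 and 1.62 CPM in dLG. The nuclei did not overlap, but MGv 1 and dLG 2, which are among the libraries that stood apart, were each the highest of their group. For dLG against MGv the log2 fold change was -2.83 ± 0.48 (adjusted p = 0.00137). It was -3.53 without dLG 2 (adjusted p = 9.01e-05), -2.21 without MGv 1 (0.0107) and -2.92 without the 3 libraries (9.57e-05). VPM against MGv gave -1.40 ± 0.46 (adjusted p = 0.0596) but rested on single libraries: without MGv 1 it was -0.77 (adjusted p = 0.346), without VPM 2 it was -1.33 (0.133) and without the 3 libraries -0.73 (0.115). For dLG against VPM it was -1.43 ± 0.45 (adjusted p = 0.0708), and leaving out VPM 1, 2 or 4 or dLG 1, 3 or 4 gave adjusted p values between 0.111 and 0.187. In that contrast the log2 fold change was -2.15 without dLG 2 (adjusted p = 0.00341) and -2.20 without the 3 libraries (0.000547). Mbp, which makes up 74.8% of the summed level of 7 oligodendrocyte lineage genes, followed the same order of nuclei as Fzd1 (sums of 13.1 to 30.5 CPM in dLG, 33.7 to 43.9 in VPM and 74.9 to 86.5 in MGv). The lineage genes Sox10 and Olig2 stayed at or under 0.389 CPM in every library and had no count in MGv.

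Fzd3, a receptor needed for thalamocortical axon growth, was at 36.0 to 60.9 CPM over all libraries and was called in no pair (adjusted p between 0.473 and 0.925). Fzd4 and Fzd6 were tested at 0.0972 to 8.39 CPM and not called. Fzd2, Fzd5 and Fzd7 were not tested. Fzd7 was at 4.12 CPM in dLG 2 and 1.05 CPM in VPM 3, both among the libraries that stood apart, and at or under 0.232 CPM in the other 9.

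Of the co-receptors, only Lrp6 and the atypical receptor Ryk were tested, because Lrp5 had no count and Ror1 and Ror2 stayed at or under 0.310 CPM. Lrp6 was at 5.003 to 11.0 CPM and not called in any pair. Ryk was at 9.47, 9.13 and 10.7 CPM in MGv, at 9.01, 9.62, 9.37 and 8.35 CPM in dLG and at 7.60, 6.23, 4.71 and 7.32 CPM in VPM. The VPM libraries lay below all others. VPM against MGv passed narrowly with a log2 fold change of -0.59 ± 0.21 (adjusted p = 0.0883), and dLG against VPM did not (0.49 ± 0.20, adjusted p = 0.175). Leaving out any single library other than VPM 4 gave an adjusted p between 0.101 and 0.231, and without the 3 libraries that stood apart it was 0.164.

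Of the 7 secreted inhibitors tested, 5 were called in at least 1 pair, where 28.3% of all tested genes were. Wif1, which binds Wnt ligands directly and lies at chr10:121033960-121100650 (+) in GRCm38, was at 23.2, 13.3, 25.7 and 38.7 CPM in dLG, at 3.43, 6.92, 2.98 and 4.47 CPM in VPM and at 3.83, 2.90 and 3.89 CPM in MGv. Every dLG library was above every other library. Its log2 fold change was 2.49 ± 0.33 against VPM (adjusted p = 0.000346) and 2.83 ± 0.39 against MGv (adjusted p = 0.000270). Sfrp2, a secreted Frizzled-related protein, was also highest in dLG, at 59.0, 47.6, 25.1 and 39.4 CPM, with 23.0, 18.7, 29.0 and 15.8 CPM in VPM and 18.03, 15.4 and 10.5 CPM in MGv. Here VPM 3 lay above dLG 3. The log2 fold change was 0.98 ± 0.26 against VPM (adjusted p = 0.0353) and 1.54 ± 0.30 against MGv (adjusted p = 0.00355). Without dLG 1 or VPM 2 the contrast with VPM missed the threshold (adjusted p = 0.136 and 0.109). Of the Sfrp2 exons, 16.1% of the bases overlap Gm26771 on the other strand, whose reads cannot be told apart if strand was not used in counting.

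Frzb, also known as Sfrp3, was detected mainly in VPM. It was at 3.62, 2.21, 1.43 and 2.04 CPM in VPM, at 0, 0.387, 0.0545 and 0.239 CPM in dLG and at 0.0751, 0.263 and 0 CPM in MGv. Its log2 fold change was -3.65 ± 0.77 for dLG against VPM (adjusted p = 0.00946) and 4.27 ± 0.97 for VPM against MGv (adjusted p = 0.0107). Both rest on few counts outside VPM, so that without dLG 2 the first was -4.40 (adjusted p = 0.00680) and without MGv 2 the second was 5.60 (0.0167). Since it entered the test through its VPM libraries alone, a difference was built into its entry.

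Dkk2, a Dickkopf protein that acts on Lrp6, was high in MGv alone. It was at 9.99, 11.1 and 6.12 CPM in MGv, at 0.304, 1.89, 0 and 0 CPM in dLG and at 0.510, 0.692, 0.620 and 0.380 CPM in VPM. All MGv libraries were above 6 CPM and all others below 2. The log2 fold change was -3.98 ± 0.91 for dLG against MGv (adjusted p = 0.0102) and -4.03 ± 0.91 for VPM against MGv (adjusted p = 0.0104). Of its dLG counts, 44 came from dLG 2 and 5 from dLG 1, and without dLG 2 the first value was -6.52 (adjusted p = 0.000130).

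Dkk3, a divergent Dickkopf family member, was low in MGv. It was at 1.65, 2.28 and 3.21 CPM there, at 8.77, 10.5, 7.90 and 9.40 CPM in dLG and at 10.1, 7.05, 10.7 and 9.46 CPM in VPM. The MGv libraries lay below all others, with a log2 fold change of 1.95 ± 0.28 for dLG against MGv (adjusted p = 0.000387) and 1.98 ± 0.28 for VPM against MGv (adjusted p = 0.000329). Between dLG and VPM the difference was -0.03 ± 0.23. Sfrp1 and Sfrp4 were tested at 2.11 to 10.7 CPM and not called in any pair. Dkk1, Sfrp5 and Notum were not tested and stayed at or under 0.816 CPM.

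**Figure D4:**
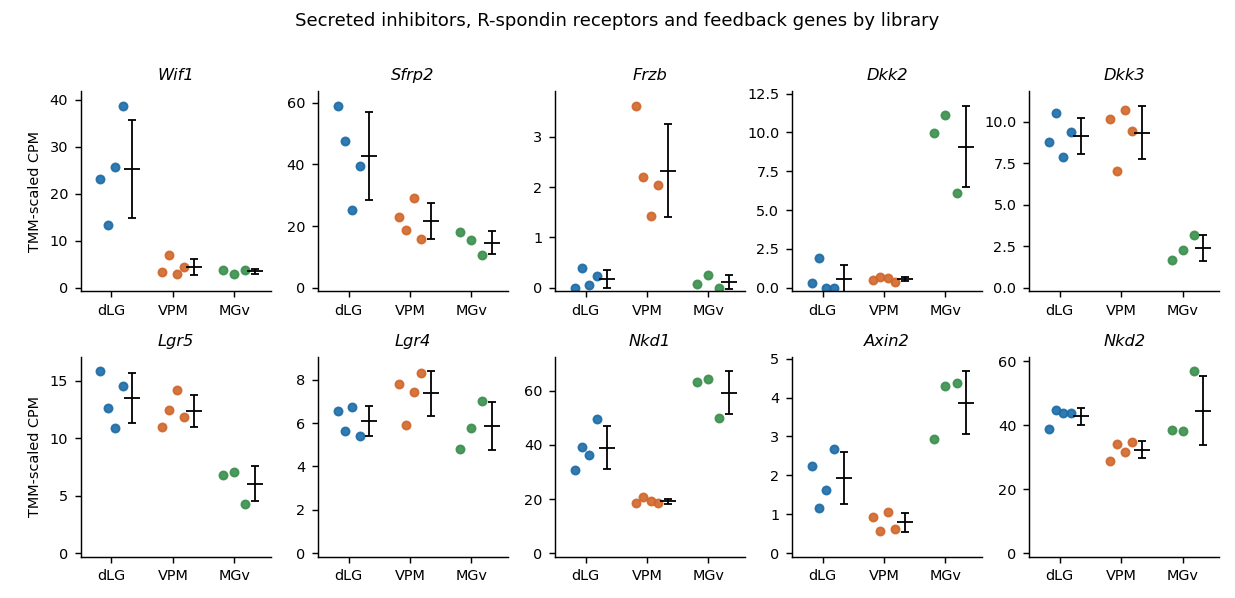
TMM-scaled CPM of 5 secreted inhibitors, the R-spondin receptors Lgr5 and Lgr4 and 3 feedback regulators in each library of dLG (4), VPM (4) and MGv (3), with the group mean and SD in black. Axes start at 0. Wif1 is highest in dLG, Frzb in VPM and Dkk2 in MGv, Dkk3 and Lgr5 are lowest in MGv, and Nkd1 and Axin2 are lowest in VPM and highest in MGv.

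All 6 R-spondins and R-spondin receptors were tested. Only the receptor Lgr5 was called in at least 1 pair, where 28.3% of all tested genes were. Lgr5 was at 15.8, 12.6, 10.9 and 14.5 CPM in dLG, at 11.0, 12.4, 14.2 and 11.8 CPM in VPM and at 6.76, 7.02 and 4.28 CPM in MGv. The dLG and VPM libraries were interleaved and all lay above MGv. The log2 fold change was 1.16 ± 0.23 for dLG against MGv (adjusted p = 0.00435) and 1.03 ± 0.23 for VPM against MGv (adjusted p = 0.00938). Its relative Lgr4 was at 4.81 to 8.32 CPM and was not called. The ligands Rspo1 to Rspo4 were at 0 to 3.55 CPM, and their standard errors of 0.63 to 1.51 on the log2 scale left log2 fold changes of -2.51 (Rspo1, VPM against MGv, adjusted p = 0.119) and 2.71 (Rspo4, dLG against MGv, adjusted p = 0.294) short of the threshold. Without the 3 libraries that stood apart, Rspo2 passed for dLG against VPM (-1.93, adjusted p = 0.0835). So did Rspo3 for dLG against VPM (-3.53, adjusted p = 0.0325) and for VPM against MGv (3.34, adjusted p = 0.0812). Of the Rspo3 exonic bases 13.07% overlap a gene on the other strand.

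Feedback regulators are themselves induced by beta-catenin signalling in many tissues. Nkd1, an inhibitor that binds Dishevelled, was at 63.4, 64.5 and 50.2 CPM in MGv, at 30.9, 39.4, 36.1 and 49.6 CPM in dLG and at 18.4, 20.6, 19.1 and 18.4 CPM in VPM. The nuclei did not overlap, although dLG 4 and MGv 3 lay within 1 CPM. Nkd1 had the smallest adjusted p of the set for VPM against MGv, where the log2 fold change was -1.63 ± 0.17 (adjusted p = 3.33e-05). For dLG against VPM it was 1.03 ± 0.16 (adjusted p = 0.00120), and for dLG against MGv -0.61 ± 0.17 (adjusted p = 0.0312). The last was lost without MGv 1, MGv 2 or dLG 1 (adjusted p = 0.107, 0.112 and 0.1001).

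Axin2, a scaffold of the complex that degrades beta-catenin, followed the same order of nuclei. It was at 2.93, 4.30 and 4.37 CPM in MGv, at 2.25, 1.16, 1.63 and 2.67 CPM in dLG and at 0.927, 0.563, 1.05 and 0.618 CPM in VPM. No libraries overlapped between the nuclei. VPM against MGv gave a log2 fold change of -2.29 ± 0.41 (adjusted p = 0.00241), and dLG against VPM gave 1.29 ± 0.39 (adjusted p = 0.0614). The latter did not pass without dLG 1 or 4 or VPM 1, 2 or 4 (adjusted p between 0.119 and 0.191), and dLG against MGv was not called (-1.001 ± 0.40, adjusted p = 0.131). Nkd2, the relative of Nkd1, was at 38.4, 38.3 and 56.9 CPM in MGv, at 38.8, 44.6, 43.7 and 43.6 CPM in dLG and at 28.8, 34.2, 31.5 and 34.8 CPM in VPM. Its VPM libraries were below all others, and only VPM against MGv passed (-0.46 ± 0.16, adjusted p = 0.0793). Without MGv 3 that value was -0.24 (adjusted p = 0.385), and without VPM 1 or 2 or dLG 1, 2 or 4 the adjusted p was between 0.103 and 0.204. Znrf3 was at 1.07 to 2.63 CPM and not called, and Rnf43 was not tested.

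The summed level of 9 genes of the response to tissue dissociation was also lowest in VPM, at 404 to 466 CPM, with 515 to 627 CPM in dLG and 614 to 771 CPM in MGv, which overlapped. Of these 9 genes, 3 (Fos, Junb and Egr1) were lower in VPM than in each other nucleus at an adjusted p under 0.1. Their part in the levels of the feedback regulators was not tested.

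The remaining Wnt pathway was covered by 113 genes in 6 lists, of which 100 were tested and 47 were called in at least 1 pair, against 28.3% of all tested genes and 18 of the 36 members. Of the 17 tested genes for Wnt secretion and other extracellular modulators, 12 (70.6%) were called. Dkk4, a Dickkopf inhibitor induced by Wnt signalling in other tissues, was at 14.4, 2.53, 9.81 and 11.2 CPM in dLG, at 1.67, 1.21, 2.36 and 1.38 CPM in VPM and had no count in any MGv library. With MGv set at its floor of 3 counts a library, Dkk4 was at least 36.4-fold higher in dLG and at least 6.36-fold higher in VPM. Gpc4, a glypican, was at 14.7, 6.70, 13.6 and 16.2 CPM in dLG and at or under 0.285 CPM elsewhere (dLG against VPM 6.07 ± 0.45 on the log2 scale, adjusted p = 2.73e-06). Like Frzb it entered the test through 1 nucleus alone, here dLG, so a difference was built into its entry.

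Sostdc1, an inhibitor that binds Lrp6, was low in VPM, at 0.510, 1.90, 1.12 and 1.28 CPM, against 10.5, 6.02, 11.8 and 11.9 CPM in dLG and 3.46, 9.74 and 12.8 CPM in MGv. VPM lay below both other nuclei (dLG against VPM 3.05 ± 0.44, adjusted p = 0.000723, and VPM against MGv -2.83 ± 0.46, adjusted p = 0.00123). Lypd6, which enhances signalling at Lrp6, was at 0.676, 1.05 and 0.583 CPM in MGv, at 5.54, 5.67, 9.53 and 5.39 CPM in dLG and at 15.6, 19.3, 10.4 and 8.56 CPM in VPM. Its log2 fold change of 4.11 ± 0.41 for VPM against MGv had an adjusted p of 2.30e-05. Wls, the carrier that brings Wnts to the cell surface, is named after its values were seen. It was at 152, 129 and 109 CPM in MGv and at 42.2 to 70.6 CPM in dLG and VPM (VPM against MGv -1.34 ± 0.18, adjusted p = 0.000235, and dLG against MGv -1.22 ± 0.18, adjusted p = 0.000451). The carrier was thus highest in the nucleus whose summed ligand level was lowest.

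All 33 genes of the beta-catenin cascade were tested and 11 (33.3%) were called in at least 1 pair, against 28.3% of all tested genes, with 3 (9.09%) for dLG against VPM, 8 (24.2%) for dLG against MGv and 9 (27.3%) for VPM against MGv, where 10.7%, 16.1% and 19.0% of all tested genes were called. The largest differences were in Dact1 and the Groucho-type co-repressors Tle2, Tle3 and Tle4. Dact1, which acts on Dishevelled, was at 9.98, 18.4, 13.3 and 20.04 CPM in dLG, at 7.79, 6.23, 8.06 and 6.71 CPM in VPM and at 2.78, 1.49 and 1.56 CPM in MGv (dLG against MGv 2.97 ± 0.32, adjusted p = 4.43e-05). Of its exonic bases 34.9% overlap a gene on the other strand. Tle4 was at 2.80, 7.99, 8.44 and 2.67 CPM in dLG, at 37.0, 33.5, 21.9 and 36.5 CPM in VPM and at 25.2, 29.4 and 26.5 CPM in MGv (dLG against VPM -2.55 ± 0.35, adjusted p = 0.000418, and dLG against MGv -2.30 ± 0.36, adjusted p = 0.000872). Tle3 was at 9.99, 9.04 and 11.0 CPM in MGv and at 0.904 to 4.25 CPM in dLG and VPM, and Tle2 was at 3.68, 5.003 and 4.57 CPM in MGv and at 0.248 to 1.64 CPM elsewhere. Both were higher in MGv than in VPM (log2 fold change -2.77 ± 0.38, adjusted p = 0.000299, and -2.79 ± 0.46, adjusted p = 0.00122).

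The transcription factors through which beta-catenin acts differed between MGv and the other nuclei in opposite directions. Tcf7l2, an established marker of the thalamus, was at 1147, 1072 and 1286 CPM in MGv, at 393, 696, 382 and 406 CPM in dLG and at 563, 552, 468 and 542 CPM in VPM. All MGv libraries were above all others (dLG against MGv -1.32 ± 0.19, adjusted p = 0.000442, and VPM against MGv -1.14 ± 0.19, adjusted p = 0.00144). Lef1 was at 209, 205 and 153 CPM in MGv, at 370, 326, 338 and 388 CPM in dLG and at 268, 344, 260 and 370 CPM in VPM. All MGv libraries were below all others (dLG against MGv 0.91 ± 0.16, adjusted p = 0.00209, and VPM against MGv 0.72 ± 0.16, adjusted p = 0.0103). Of the Lef1 exonic bases 13.75% overlap a gene on the other strand. Tcf7 and Tcf7l1 were not tested.

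**Figure D5:**
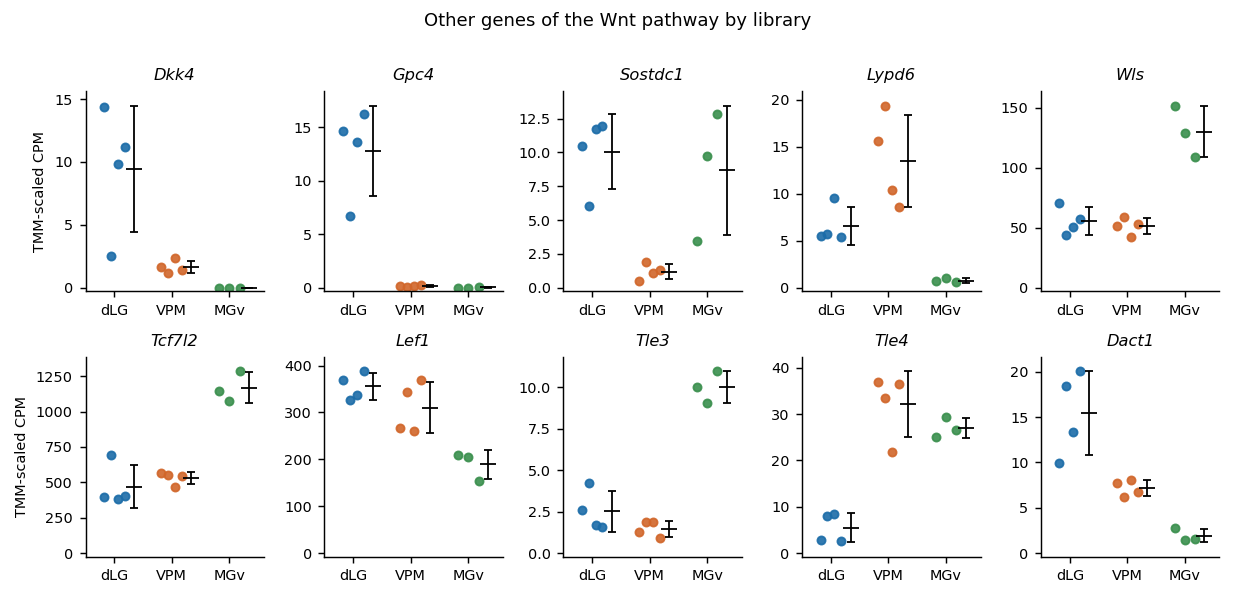
TMM-scaled CPM of 10 genes of the pathway lists in each library of dLG (4), VPM (4) and MGv (3), with the group mean and SD in black. Axes start at 0, and Dkk4 has no count in MGv. Dkk4, Gpc4 and Dact1 are highest in dLG, Sostdc1 is lowest and Lypd6 highest in VPM, Wls, Tcf7l2 and Tle3 are highest and Lef1 lowest in MGv, and Tle4 is lowest in dLG.

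Of 18 tested planar cell polarity genes, 7 (38.9%) were called in at least 1 pair, against the same 28.3% of all tested genes. Fat4, an atypical cadherin, was at 1.30, 0.995, 0.868 and 0.713 CPM in VPM and at 5.35 to 11.2 CPM in the other nuclei (dLG against VPM 3.08 ± 0.30, adjusted p = 2.74e-05). Ankrd6, also known as Diversin, was at 10.2, 12.7, 18.9 and 12.8 CPM in VPM, at 39.0, 63.9, 45.0 and 48.3 CPM in dLG and at 79.9, 85.3 and 87.3 CPM in MGv, with no overlap between nuclei (VPM against MGv -2.63 ± 0.21, adjusted p = 3.63e-06). Celsr1 was lower in MGv than in VPM (2.19 ± 0.79, adjusted p = 0.0867), and so was Vangl1 (1.28 ± 0.30, adjusted p = 0.0134). Of the 17 tested genes of the calcium branch, 6 (35.3%) were called, against 28.3%. Plcb1, a phospholipase C, was at 35.9, 55.5 and 72.4 CPM in MGv and at 5.97 to 12.8 CPM elsewhere (dLG against MGv -2.92 ± 0.27, adjusted p = 1.18e-05). Camk2a was at 36.6, 38.0 and 53.6 CPM in MGv, at 28.9, 24.4, 19.7 and 31.5 CPM in dLG and at 14.8, 12.3, 8.13 and 11.3 CPM in VPM, so that VPM lay below both (VPM against MGv -1.87 ± 0.23, adjusted p = 0.000115).

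Of the 14 tested genes listed as other beta-catenin targets, 9 (64.3%) were called, against 28.3%. Between VPM and MGv, 6 were higher in VPM, a direction in which 10.4% of all tested genes were called. In MGv 2 were higher, against 8.56%, and this was the direction of Axin2 and Nkd1. The 4 with the largest changes were among those higher in VPM. Myc was at 49.5, 46.6, 48.9 and 53.4 CPM in VPM, at 23.1, 35.6, 30.8 and 26.7 CPM in dLG and at 14.2, 12.5 and 4.76 CPM in MGv. It was thus highest where Axin2 was lowest (VPM against MGv 2.23 ± 0.29, adjusted p = 0.000200). Mycn followed the same order, at 208, 223, 234 and 227 CPM in VPM, 134, 131, 116 and 125 CPM in dLG and 83.5, 85.5 and 50.8 CPM in MGv (VPM against MGv 1.61 ± 0.17, adjusted p = 3.57e-05). Cdx1 and Nrarp were also higher in VPM than in MGv (2.83 ± 0.95, adjusted p = 0.0680, and 2.28 ± 0.68, adjusted p = 0.0408). Cdx1 stayed at or under 1.14 CPM and entered the test through VPM alone, and 79.4% of the exonic bases of Nrarp overlap a gene on the other strand.

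Read by nucleus, with contrasts that share libraries, the called members were these. Wnt3, Sfrp2 and Wif1 were higher in dLG than in each other nucleus, and Fzd1 was lower there than in each. In VPM, Wnt9a, Fzd9, Fzd10 and Frzb were higher than in each other nucleus, and Fzd8, Axin2 and Nkd1 were lower. In MGv, Fzd1, Dkk2 and Nkd1 were higher than in each other nucleus, and Wnt3, Wnt9b, Dkk3 and Lgr5 were lower. Of all tested genes, 2.04% were higher and 2.18% lower in dLG than in each other nucleus. These shares were 2.41% and 1.97% for VPM, and 3.66% and 5.22% for MGv. Wnt3, Sfrp2, Fzd1, Fzd8, Fzd9, Axin2 and Nkd1 each had a call that was lost when a single library was left out. Frzb entered the test through VPM alone, so a difference was built into its entry.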

How the data were processed

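RNA-seq libraries were prepared with a SMARTer Ultra Low v4 kit and sequenced as single-end reads of 50 bases. The deposited files hold raw read counts per gene, which the authors made with Trim Galore 0.6.1, cutadapt 2.3, STAR 2.7.0d and featureCounts (Subread 1.6.4) on GRCm38 (mm10). Whether strand was used in counting is not given in the sources used here. Sample titles gave the groups. The labels number the libraries within each nucleus, and the libraries were taken as separate pools, so p-values measure the spread between them. Whether libraries of different nuclei came from the same brains is not given in the sources used here.

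Symbols, positions (1-based) and exon lengths came from GENCODE M21, an annotation newer than that of the counting, which held 54723 of the 54752 identifiers. Counts were tested with edgeR 4.0.16 in R 4.3.3 (quasi-likelihood test, filterByExpr, TMM, 3 group means fitted to all 11 libraries), two-sided, with Benjamini-Hochberg adjustment over 15907 genes and a threshold of 0.1. Standard errors are the log2 fold change over the square root of F. The fitted coefficient of biological variation was 28.2%. The fit was tested on simulated data. Alternatives were voom with quality weights (limma 3.58.1), DESeq2 1.42.0, its size factors in place of TMM, other count filters, a replicate block, thinned counts, only the nuclei compared, a threshold of 0.05, each library left out, and a covariate for, or omission of, the 3 libraries that stood apart. From each pathway list the called genes with the largest absolute log2 fold change were named, at most 4 a list, plus the TCF/LEF factors. The members and lists were chosen with earlier results of these data known.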

Additional observations from a re-analysis of the deposited data

Results flagged for a closer look

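Within groups of 4 libraries, 72 sets of values (36 members in dLG and in VPM) were screened for a single library far from the rest of its group (Dixon's criterion at 95%), and 3 sets were marked, where chance alone marks about 1 in 20, or 3.6 sets. Dkk2 in dLG 2 was at 1.89 CPM (44 counts), with the other dLG libraries between 0 and 0.304 CPM. Rspo3, an R-spondin ligand, was at 2.45 CPM in the same library (57 counts), with the others between 0 and 0.286 CPM. Nkd2 in dLG 1 was low, at 38.8 CPM, with the other dLG libraries between 43.6 and 44.6 CPM. The first pair of values come from a library that also stood apart by Hspa8.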

How the results depend on the processing

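For the 36 calls of a member in a pair of nuclei, 787 values under an alternative were obtained: 700 kept direction and side of the threshold, 87 no longer passed, and 0 reversed. The number of members called between dLG and VPM was 11, and 7 at an adjusted p under 0.05. With 1 library left out it was between 6 and 12 (lowest without dLG 1 or VPM 2), between 8 and 11 for dLG against MGv, between 10 and 17 for VPM against MGv (lowest without VPM 2), and between 15 and 18 among the nuclei. Without the 3 libraries that stood apart the counts were 14, 10, 16 and 18. For the pathway lists, 18 genes were called between dLG and VPM, 28 without those 3 libraries and 38 by limma voom, and between 14 and 25 with 1 library left out. The ranges were 25 to 32 for dLG against MGv and 31 to 43 for VPM against MGv. Shares of all tested genes under these alternatives, and under the replicate block below, are not given here. The shifts are therefore not read as particular to Wnt genes, and their cause was not tested.

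Replicate numbers are shared between nuclei. The 10 pairs of libraries with the same number had a mean correlation of deviations of 0.015 (-0.203 to 0.483). The 30 other pairs had one of -0.005 (-0.311 to 0.268), and the numbers were not taken as pairing. Between dLG and VPM the same-numbered pairs 1 to 4 were at 0.185, 0.025, -0.008 and 0.483, so the mean over all pairs cannot decide whether these nuclei were paired. With a replicate block, 9 members were called for dLG against VPM, 9 for dLG against MGv, 12 for VPM against MGv and 15 in the joint test, and 18, 30 and 35 pathway genes in the pairwise contrasts. The block ended 6 of the 36 calls: Wnt3 and Axin2 for dLG against VPM, and Wnt7a, Fzd1, Ryk and Nkd2 for VPM against MGv. Counts thinned to the smallest library total ended 4 calls. These were Fzd1 (adjusted p = 0.276) and Axin2 (0.149) for dLG against VPM, and Wnt7a (0.109) and Nkd2 (0.161) for VPM against MGv. At the depths of these libraries genes under about 1 CPM, which include most R-spondins, have wide errors.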
